A study of Mus musculus with 4 samples.

Results

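Translation initiation and elongation factors load, position and move ribosomes on every cytosolic mRNA. The set described here held the protein-coding genes of the deposited table whose symbol begins with Eef or Eif followed by a digit between 1 and 6. That rule used names alone and found 68 genes of 54532, of which 66 had enough counts to be tested among 14056 tested genes. It also takes in genes that regulate the factors and are not factors themselves: 4 kinases that phosphorylate eIF2, 4 eIF4E-binding proteins and 7 enzymes or partners of the elongation factors. Of the remaining genes 44 were counted as initiation factors, among them Eif1ad, a relative of Eif1a. A further 8 encode elongation factors including eIF5A, and Eif4a3 encodes the RNA helicase of the exon junction complex.

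In cap-dependent initiation the eIF4F complex (the cap-binding protein eIF4E, the scaffold eIF4G and the helicase eIF4A) prepares the mRNA, while eIF2 brings the initiator tRNA to the small ribosomal subunit together with eIF3, eIF1, eIF1A and eIF5. The exchange factor eIF2B recharges eIF2 with GTP, and kinases of the integrated stress response block that exchange by phosphorylating eIF2 alpha. Elongation then runs on eEF1A, which delivers aminoacyl-tRNA, on eEF2, which moves the ribosome along, and on eIF5A, which relieves stalls. Many elongation factor mRNAs begin with a terminal oligopyrimidine (TOP) tract, whose translation depends on mTORC1.

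Expression was measured by RNA sequencing in cultured epidermal stem cells (EpSCs), keratinocyte progenitors taken from C57BL/6 mouse skin and kept in EpiLife medium with the growth supplement HKGS. ALP cultures received 30 μg/mL ALP for 48 h, read here as the Arctium lappa L. polysaccharide of the series title. Control cultures received 0.06% DMSO for 48 h. The sources used here do not state if DMSO was added to the ALP cultures as well. Each group held 2 libraries, named A and B here as labels that pair nothing. No source used here ties the 2 libraries of a group to separate animals or cultures. The p-values therefore cover the spread among these 4 libraries alone, and that spread may be technical.

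Total gene counts were 17430345 and 15766244 in the ALP libraries and 17415047 and 17360445 in the control libraries. All 4 libraries differed by more than counting noise, and the ALP pair differed more (chi-square per degree of freedom 22.4) than the control pair (5.92). The keratinocyte identity of the cultures was visible in all libraries. The 7 basal keratinocyte markers, among them Krt5 and Krt14, were all detected and summed to 36206 and 29852 CPM in ALP libraries and to 48354 and 48537 CPM in the control libraries. Of these markers 4 fell and 2 (Itgb4 and Itga6) rose. Endothelial markers summed to 14.4 and 24.8 CPM in ALP and 4.59 and 6.57 CPM in control libraries, with Emcn at 0 in all. Fibroblast markers summed to 7.93 and 4.46 CPM in ALP and 17.5 and 13.6 CPM in control libraries, with Lum at 0. Melanocyte markers summed to 53.7 to 64.7 CPM and leukocyte markers to 5.17 to 9.46 CPM over the 4 libraries, with Cd3e and Cd207 at 0. The part of these marker differences in the results was not tested.

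The promoter stretches printed here belong to genes of the cap-binding complex and to Eef2, which moved in opposite directions, and each carries the hexamer CACGTG, shown in capitals. The printed genes are among the 13 of 52 members with this hexamer in a promoter window (described below), and other called members lacked it. The stretches therefore do not show how common the hexamer is. Sequences are from RefSeq on GRCm38.p6, each 100 bases long and written in the direction of transcription. For Eif4e, Eif4g1 and Eef2 the stretch ends at the base before the RefSeq start. For Eif4a1 it spans bases -240 to -141, where its hexamer lies, counting the base before the start as -1.
Eif4e, chr3:138527168-138527267, plus strand: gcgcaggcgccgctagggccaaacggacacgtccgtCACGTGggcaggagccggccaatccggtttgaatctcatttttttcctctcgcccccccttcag
Eif4g1, chr16:20672627-20672726, plus strand: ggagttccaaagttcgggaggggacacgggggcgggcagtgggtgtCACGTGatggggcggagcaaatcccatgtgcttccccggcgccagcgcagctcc
Eif4a1, chr11:69672564-69672663, minus strand: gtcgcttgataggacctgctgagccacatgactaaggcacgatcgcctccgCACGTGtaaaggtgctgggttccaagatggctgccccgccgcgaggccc
Eef2, chr10:81176531-81176630, plus strand: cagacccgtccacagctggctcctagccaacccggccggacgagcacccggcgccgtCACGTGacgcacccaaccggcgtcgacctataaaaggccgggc
The hexamer begins at base -64 in Eif4e, -54 in Eif4g1, -189 in Eif4a1 and -43 in Eef2.

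ALP cultures had higher mRNA levels of the cap-binding complex (Eif4e, Eif4g1, Eif4a1), of the eIF2 alpha subunit, of Eif1a and of Eif5a, and lower levels of the 2 most abundant elongation factors, Eef1a1 and Eef2, of Eif4b and of the repressor Eif4ebp1. Of the 66 tested members 17 rose and 8 fell at an adjusted p under 0.05, and 41 did not pass. This is 37.9% of the tested members, against 29.8% of all tested genes. By direction, 25.8% rose and 12.1% fell, against 17.7% and 12.1% of all tested genes. The median log2 fold change was 0.15 over the members and -0.003 over all tested genes. All values are levels in bulk RNA, in which fewer cells of a type and less RNA per cell cannot be told apart.

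These counts rested on both control libraries. Without control replicate A no gene and no member was called by edgeR (12 members higher and 5 lower at an unadjusted p under 0.05), and without control replicate B 197 genes and no member were called (14 higher and 10 lower unadjusted). Without ALP replicate A 28 members rose and 16 fell, beside 25.3% and 24.0% of all tested genes. Without ALP replicate B 22 rose and 11 fell, beside 18.7% and 14.4% of all tested genes. DESeq2 called 18 members up and 10 down, with 29.0% of all genes called, and limma-voom 21 and 11, with 33.7% of all genes called. The split of 17 and 8 was 14 and 11 with upper-quartile scaling (16.0% and 14.1% of all tested genes) and 14 and 10 with library totals alone (16.3% and 13.4%). No called member changed sign in any of these settings.

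Most changes were moderate. Eif1a and Eef1e1 were the 2 called members beyond 2-fold, and the smallest called change was 0.34 on the log2 scale. ALP libraries lay above both control libraries for 38 members and below both for 19, and the groups overlapped for 9. Over all tested genes 75.7% did not overlap, with ALP above for 38.2% and below for 37.5%. In 23 of the 25 called members ALP replicate B lay farther from the control mean than ALP replicate A.

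**Figure D1:**
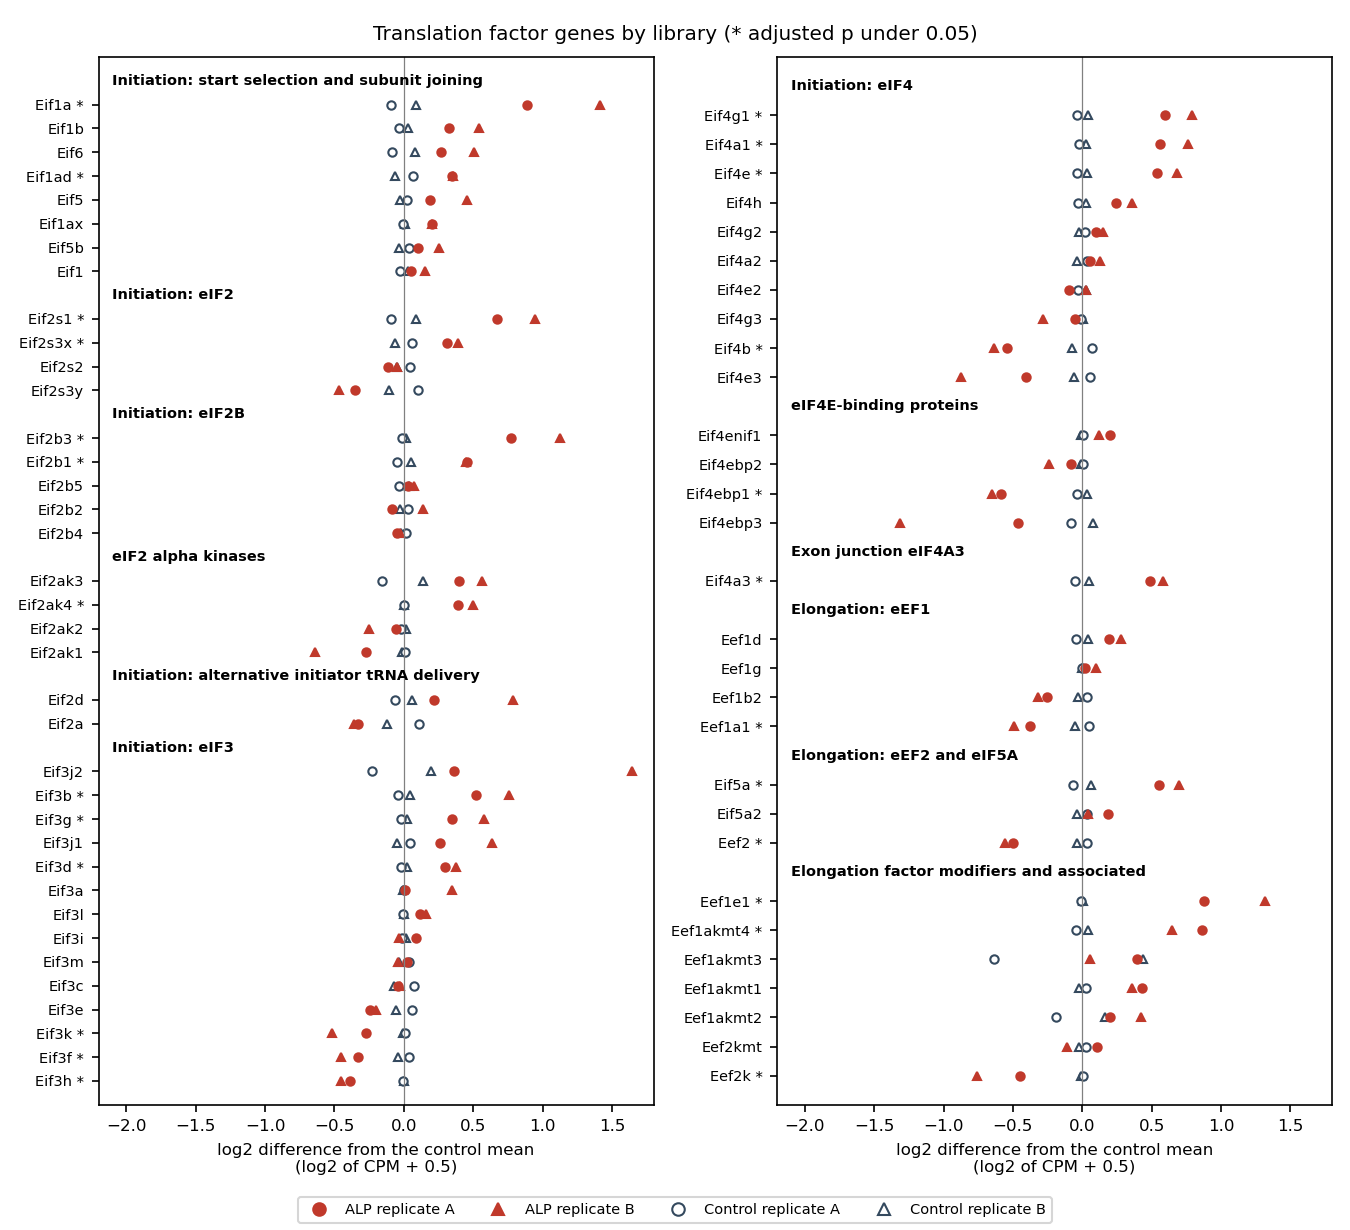
The x axis gives each library's log2 difference from the control mean, in log2 of CPM + 0.5, for the 66 tested members grouped by role along the y axis. Filled red symbols are the ALP libraries, open symbols the control libraries, and asterisks mark the 25 members past the threshold. The 8 genes of the start-selection group at the upper left all have both ALP libraries above both control libraries, as do 38.2% of all tested genes.

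The group of start selection and subunit joining held 8 genes, among them Eif6 and the Eif1a relative Eif1ad. ALP libraries lay above both control libraries for all 8, as they did for 38.2% of all tested genes, and the median log2 fold change was 0.34. Of the 8, 2 passed the test and both rose, a share of 25.0% that is below the 29.8% called over all tested genes. Eif1a encodes eIF1A, which with eIF1 keeps the scanning ribosome open, and lies on chromosome 18, 46597704 to 46610225 (gene coordinates are those of the deposited table, on GRCm38). It had 151 and 218 CPM in ALP libraries, against 76.5 and 86.7 CPM in control libraries. The increase was 1.18 ± 0.19 on the log2 scale (SE; edgeR adjusted p = 0.0163, n = 2 libraries each), and the ALP libraries differed from each other more than the control libraries did. Eif1ad, a related gene with an eIF1A-like domain, had 55.1 and 55.5 CPM in ALP libraries and 45.2 and 41.3 CPM in control libraries (0.36 ± 0.10; edgeR adjusted p = 0.0431). Its call was lost with upper-quartile scaling, library totals alone, no low-count filter and DESeq2, and 15.3% of its exon bases overlap Banf1 on the opposite strand.

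The other genes of this group did not pass. Eif1, the start-codon gatekeeper, had 411 and 441 CPM in ALP and 389.7 and 405 CPM in control libraries, a difference of 0.10 ± 0.09 (edgeR adjusted p = 0.416). Eif6, which holds the large subunit apart from the small one, had 294 and 346 CPM in ALP and 231 and 258 CPM in control libraries (0.39 ± 0.12; edgeR adjusted p = 0.0556), and it passed with DESeq2, limma-voom and without either ALP library. Eif1ax, the X-linked copy of Eif1a, had 123 and 124 CPM in ALP and 107 and 108 CPM in control libraries (0.20 ± 0.08; edgeR adjusted p = 0.0985). Levels per length (RPKM, TMM-scaled CPM per kilobase of the deposited gene length) gave an Eif1a to Eif1ax ratio of 2.24 and 3.23 in ALP libraries and 1.31 and 1.47 in control libraries. The best local alignment of their longest transcripts (2865 bases for Eif1a and 5172 for Eif1ax) was 85.2% identical over 459 aligned bases.

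Within eIF2, the 3-subunit carrier of the initiator tRNA, 2 of 4 genes rose and none fell, where 17.7% of all tested genes rose and 12.1% fell. Eif2s1 encodes the alpha subunit that the stress kinases phosphorylate (chromosome 12, 78861819 to 78887010). It had 165 and 201 CPM in ALP libraries, against 97.5 and 110.4 CPM in control libraries (0.82 ± 0.13; edgeR adjusted p = 0.0163). Eif2s2, the beta subunit, had 200.1 and 209 CPM in ALP and 224 and 209 CPM in control libraries (-0.08 ± 0.09; edgeR adjusted p = 0.504), with a control library level with an ALP library. Per length, Eif2s1 stood at 1.13 and 1.31 times Eif2s2 in ALP libraries and at 0.594 and 0.72 times in control libraries.

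The gamma subunit has an X-linked and a Y-linked copy in the mouse. Eif2s3x rose, with 211 and 222 CPM in ALP and 177 and 162 CPM in control libraries (0.35 ± 0.09; edgeR adjusted p = 0.0392), a call lost with upper-quartile scaling and library totals alone. Eif2s3y had 24.5 and 22.6 CPM in ALP and 33.8 and 29.1 CPM in control libraries (-0.42 ± 0.13; edgeR adjusted p = 0.0651). Both copies were expressed in all 4 libraries, at an Eif2s3x to Eif2s3y ratio per length of 9.4 and 10.7 in ALP and 5.73 and 6.1 in control libraries. The deposited gene length was 3812 bases for Eif2s3x and 4161 for Eif2s3y, whereas the longest transcripts had 3647 and 1836 bases. The size of the ratio depends on which length is used. The transcripts of both copies were 85.9% identical over 1539 aligned bases. How reads that match both were counted is not stated in the sources used here.

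Of the 5 eIF2B genes 2 rose and none fell, where 17.7% of all tested genes rose and 12.1% fell. The median log2 fold change was 0.05, which was 0.0156 with upper-quartile scaling, 0.0174 with library totals alone, 0.131 without ALP replicate A and 0.0969 without control replicate B. Eif2b3, the gamma subunit, rose by the most of the complex (chromosome 4, 117019402 to 117087306). It had 34.4 and 44.2 CPM in ALP libraries and 19.8 and 20.2 CPM in control libraries (0.98 ± 0.16; edgeR adjusted p = 0.0163). Eif2b1, the alpha subunit of the regulatory part, had 49.1 and 48.7 CPM in ALP and 34.4 and 36.9 CPM in control libraries (0.46 ± 0.10; edgeR adjusted p = 0.0264). Eif2b5, the catalytic subunit, had 109 and 112 CPM in ALP and 104 and 109 CPM in control libraries (0.05 ± 0.08; edgeR adjusted p = 0.644). Per length, Eif2b3 remained below Eif2b4, another subunit of the complex, at 0.388 and 0.49 times its level in ALP and 0.212 and 0.222 times in control libraries.

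The 4 eIF2 alpha kinases did not move together. Eif2ak4 (GCN2, which senses uncharged tRNA) rose, with 41.4 and 44.7 CPM in ALP libraries and 31.4 and 31.5 CPM in control libraries (0.45 ± 0.10; edgeR adjusted p = 0.0304). Eif2ak3 (PERK, which senses unfolded protein in the endoplasmic reticulum) had 41.2 and 46.4 CPM in ALP and 28.0 and 34.4 CPM in control libraries (0.49 ± 0.14; edgeR adjusted p = 0.0515), and it passed with DESeq2, limma-voom and without either ALP library. Eif2ak1 and Eif2ak2, which respond to heme and to double-stranded RNA, did not pass, at -0.45 and -0.15 on the log2 scale. The 2 genes for other routes of tRNA delivery, Eif2a and Eif2d, did not pass either, at -0.35 and 0.53.

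In a list of 7 integrated stress response effectors, 5 fell, none rose and the median log2 fold change was -0.82. Over all tested genes 12.1% fell and 17.7% rose. The list was chosen with earlier results of these data known. Trib3, a pseudokinase induced by the pathway, had 41.9 and 38.1 CPM in ALP libraries and 87.7 and 78.2 CPM in control libraries (-1.05 ± 0.10; edgeR adjusted p = 0.0161). Ppp1r15a (GADD34, which directs a phosphatase to eIF2 alpha) changed by -1.07 ± 0.15 and Ddit3 (CHOP, a transcription factor) by -0.82 ± 0.13 (edgeR adjusted p = 0.0161 and 0.0164). Atf4, whose protein is controlled mainly by translation, did not pass, at -0.19 on the log2 scale, nor did Ppp1r15b, a relative of Ppp1r15a, at 0.23 with both ALP libraries above both control libraries.

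The 14 genes of eIF3, the large scaffold of the small subunit, split by direction, with 3 called up and 3 called down around a median of 0.08 (0.0450 with upper-quartile scaling and 0.0471 with library totals alone). None of the 8 genes of the structural octamer (a, c, e, f, h, k, l and m) rose, and 3 fell, with a median of -0.13. Of the 3 genes of the b-g-i module 2 rose, with a median of 0.47, and of the 3 peripheral genes (d and both j genes) 1 rose. In all tested genes 17.7% rose and 12.1% fell.

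Eif3b, the propeller subunit that anchors the b-g-i module, rose the most of the called eIF3 genes (chromosome 5, 140419328 to 140443360). It had 465 and 550.0 CPM in ALP libraries, against 314 and 334 CPM in control libraries (0.65 ± 0.11; edgeR adjusted p = 0.0184). Eif3g, an RNA-binding subunit of the same module, had 125 and 147 CPM in ALP and 96.8 and 99.8 CPM in control libraries (0.47 ± 0.10; edgeR adjusted p = 0.0286). Eif3d, a cap-binding subunit at the edge of the complex, had 127 and 134 CPM in ALP and 102 and 105 CPM in control libraries (0.34 ± 0.08; edgeR adjusted p = 0.0351). An antisense gene overlaps 43.3% of its exon bases, and that gene held 35 counts over the 4 libraries against 7898 for Eif3d.

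Among the subunits that fell, Eif3h had 226 and 215 CPM in ALP libraries and 294 and 296 CPM in control libraries (-0.42 ± 0.08; edgeR adjusted p = 0.0225). Eif3f, its partner in the octamer, had 249 and 228 CPM in ALP and 321 and 305 CPM in control libraries (-0.39 ± 0.09; edgeR adjusted p = 0.0327). Eif3k, a small octamer subunit, had 131 and 110.0 CPM in ALP and 159 and 157 CPM in control libraries (-0.39 ± 0.11; edgeR adjusted p = 0.0467). The groups did not overlap for any of the 3, as for 75.7% of all tested genes. Per length, Eif3b stood at 0.993 and 1.23 times Eif3h in ALP libraries and at 0.515 and 0.545 times in control libraries.

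Eif3a, the largest subunit and the core of the octamer, had 556 and 706 CPM in ALP and 556 and 553 CPM in control libraries (0.19 ± 0.13; edgeR adjusted p = 0.317). The ALP libraries disagreed on it: replicate A matched the controls and replicate B stood above them, and the difference passed when replicate A was left out. Eif3e had 177 and 182 CPM in ALP and 218 and 201 CPM in control libraries (-0.22 ± 0.09; edgeR adjusted p = 0.103). Eif3j1 and Eif3j2 did not pass, and their transcripts were 99.8% identical over 2369 bases, so how reads divide between them is uncertain.

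**Figure D2:**
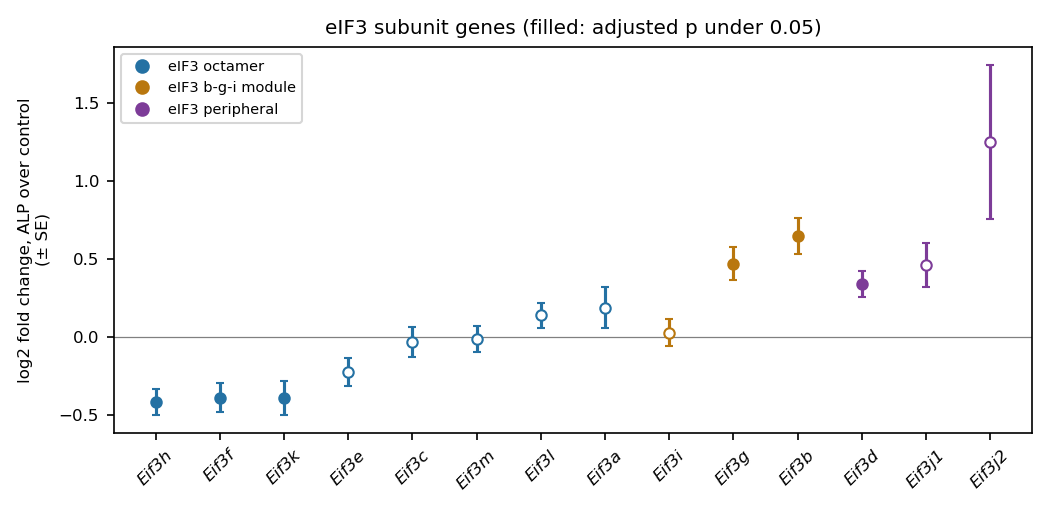
Log2 fold changes of the 14 eIF3 genes, ALP over control, with standard errors, are arranged by module; filled points passed the test. The 3 called octamer genes (Eif3f, Eif3h and Eif3k) lie between -0.42 and -0.39, and the called genes outside the octamer (Eif3b, Eif3g and Eif3d) between 0.34 and 0.65.

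Of the cap-binding complex eIF4F, Eif4e, Eif4g1 and Eif4a1 rose, whereas the helicase cofactor Eif4b and the repressor Eif4ebp1 fell. Of the 10 tested eIF4 genes 3 rose and 1 fell, with a median of 0.11 (0.0705 with upper-quartile scaling). Of the 4 eIF4E-binding proteins 1 fell, with a median of -0.39. Over all tested genes 17.7% rose and 12.1% fell. Eif4e, the cap-binding subunit (chromosome 3, 138526179 to 138559696), had 119 and 131 CPM in ALP libraries and 79.7 and 83.7 CPM in control libraries (0.62 ± 0.09; edgeR adjusted p = 0.0161). Eif4g1, the scaffold (chromosome 16, 20668313 to 20692884), had 1105 and 1266 CPM in ALP and 709.6 and 751 CPM in control libraries (0.70 ± 0.11; edgeR adjusted p = 0.0161).

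Eif4a1, the helicase (chromosome 11, 69666936 to 69672423), had 942 and 1085 CPM in ALP libraries and 628 and 650.0 CPM in control libraries (0.67 ± 0.11; edgeR adjusted p = 0.0163). A copy, Eif4a-ps4 on chromosome 1, is 99.9% identical to it over 1218 bases. That row is not protein-coding by the table's annotation, so the rule left it out. The copy held 2669 and 2704 counts in ALP and 1846 and 2034 counts in control libraries (0.58 ± 0.11; edgeR adjusted p = 0.0197), and with both counted together Eif4a1 rose by 0.65. Reads of the gene and of its copy cannot be told apart with confidence.

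Eif4b, which stimulates the helicase, fell (chromosome 15, 102073773 to 102097173). It had 454 and 426 CPM in ALP libraries and 696 and 628 CPM in control libraries (-0.59 ± 0.10; edgeR adjusted p = 0.0172). Eif4h, its shorter relative, did not pass, at 0.30 on the log2 scale. The difference between these related genes was not itself tested.

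Eif4ebp1, the repressor that mTORC1 releases from eIF4E, also fell (chromosome 8, 27260329 to 27276674). It had 93.8 and 89.5 CPM in ALP libraries, against 138 and 145 CPM in control libraries (-0.62 ± 0.08; edgeR adjusted p = 0.0161). Eif4ebp2 had 415 and 373 CPM in ALP and 443 and 438 CPM in control libraries (-0.16 ± 0.09; edgeR adjusted p = 0.237). Eif4ebp3 was near the detection limit, at 0.752 and 0.194 CPM in ALP and 1.13 and 1.31 CPM in control libraries (edgeR adjusted p = 0.146), where 3 counts correspond to 0.172 to 0.19 CPM before scaling. On the same strand 67.3% of its exon bases overlap another annotated gene, AC115631.1, which held 0 counts, and its level is uncertain.

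Set against Eif4e per length, the repressor mRNAs were lower in ALP libraries. Here Eif4ebp1 stood at 2.15 and 1.86 times Eif4e in ALP libraries and at 4.72 and 4.72 times in control libraries. With Eif4ebp2 added, the ratio was 5.78 and 4.81 in ALP libraries and 10.5 and 10.2 in control libraries. These are ratios of mRNA levels and hold no information on protein or phosphorylation.

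The paralogs of Eif4a1 and Eif4g1 did not pass the test. Eif4a2 differed by 0.09, Eif4g2 by 0.12 and Eif4g3 by -0.16 on the log2 scale; the paralogs were not tested against the main genes. Per length, Eif4a1 stood at 7.07 and 7.72 times Eif4a2 in ALP libraries and 4.77 and 5.2 times in control libraries. Eif4g1 made up 44.2% and 47.1% of the summed eIF4G level per length in ALP libraries and 34.7% and 36.6% in control libraries. Eif4e2 and Eif4e3, the other cap-binding proteins, did not pass at -0.04 and -0.64, and Eif4e1b, an oocyte form, had 0 counts in every library. Eif4a3, the helicase of the exon junction complex, rose, with 134 and 143 CPM in ALP libraries and 92.1 and 98.6 CPM in control libraries (0.54 ± 0.09; edgeR adjusted p = 0.0168).

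**Figure D3:**
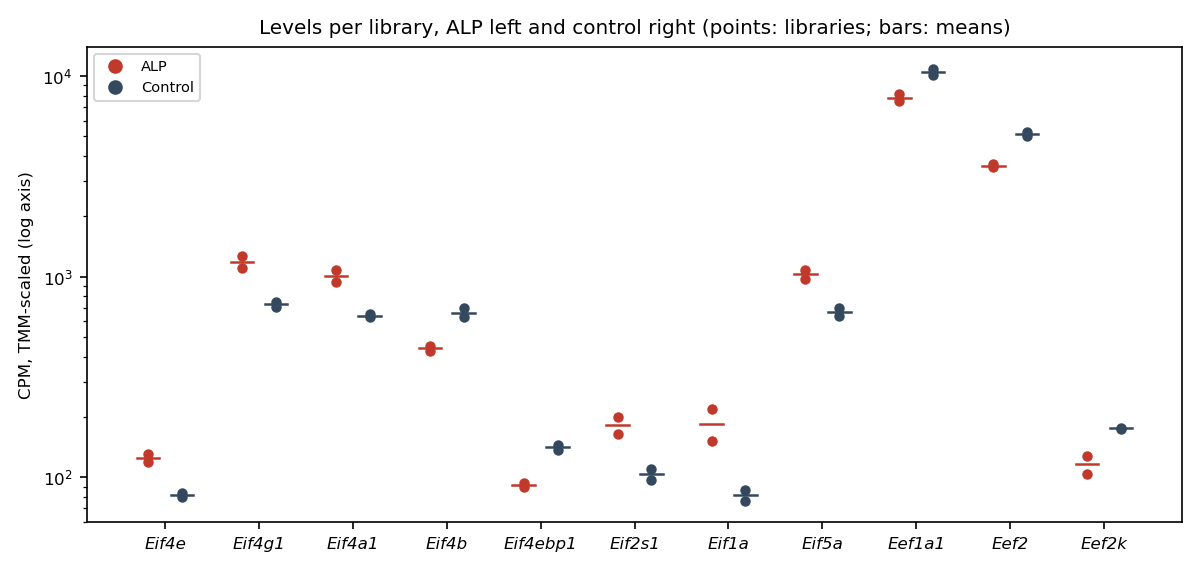
CPM (TMM-scaled) in each library is shown for Eif4e, Eif4g1, Eif4a1, Eif4b, Eif4ebp1 and other named members, with ALP libraries left of control libraries for each gene, on a log axis, and bars at the means. The groups do not overlap for the 11 genes shown, all of them called, as for all 25 called members and 75.7% of all tested genes. Eif4ebp1 stands at 93.8 and 89.5 CPM in ALP libraries, below 138 and 145 CPM in control libraries.

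The elongation factors included the most abundant mRNAs of the set, and their summed share was smaller in the ALP libraries. The 8 genes held 1.41% and 1.34% of all counts in ALP libraries and 1.86% and 1.76% in control libraries. Most of that sum was Eef1a1 (0.803% and 0.736% in ALP, 1.10% and 1.02% in control libraries) and Eef2 (0.361% and 0.345%, 0.536% and 0.508%). Of the 7 tested genes 4 had a log2 fold change above 0 and 3 below, so the smaller sum was not a trait of each gene. The 44 initiation factor genes held 1.11% and 1.19% in ALP and 1.04% and 1.02% in control libraries. Of the 7 tested elongation factor genes 1 rose and 2 fell, with a median of 0.06 (0.0236 with upper-quartile scaling, 0.0253 with library totals alone, 0.0390 when ALP replicate A was left out and 0.0325 when ALP replicate B was). Of the 43 tested initiation factor genes 12 rose and 4 fell, with a median of 0.18 (0.117 without ALP replicate B). Over all tested genes 17.7% rose and 12.1% fell. The 2 classes were not tested against each other.

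Eef1a1, which delivers aminoacyl-tRNA, was the most abundant member in both groups (chromosome 9, 78478449 to 78489151). It had 8097 and 7499 CPM in ALP libraries, against 10893 and 10159.6 CPM in control libraries (-0.43 ± 0.11; edgeR adjusted p = 0.0361). Its paralog Eef1a2, known from muscle and neurons, had 1 count in ALP replicate A and 0 in the other libraries. The exchange factor subunits of eEF1 did not pass, with log2 differences of -0.29 for Eef1b2, 0.06 for Eef1g and 0.24 for Eef1d.

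Eef2, the translocase (chromosome 10, 81176631 to 81182498), had 3642 and 3515 CPM in ALP libraries and 5285 and 5035 CPM in control libraries (-0.53 ± 0.10; edgeR adjusted p = 0.0197). Eef2k, the kinase that inactivates eEF2, fell as well, with 128 and 104 CPM in ALP and 176 and 175 CPM in control libraries (-0.60 ± 0.12; edgeR adjusted p = 0.0236). Eif5a, the factor that carries hypusine, moved the other way (chromosome 11, 69916714 to 69921958). It had 978 and 1079.6 CPM in ALP libraries and 635 and 695 CPM in control libraries (0.63 ± 0.10; edgeR adjusted p = 0.0168). Its low-level paralog Eif5a2 did not pass at 0.12, and per length Eif5a stood at 141 and 172 times Eif5a2 in ALP and 102 and 117 times in control libraries.

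Among the genes that act on the elongation factors, Eef1e1 (AIMP3, a scaffold of the multi-tRNA synthetase complex) rose beyond 2-fold. It had 44.1 and 59.9 CPM in ALP libraries and 23.7 and 23.9 CPM in control libraries (1.13 ± 0.17; edgeR adjusted p = 0.0161). Eef1akmt4, a lysine methyltransferase of eEF1A with low counts, had 5.44 and 4.59 CPM in ALP and 2.66 and 2.86 CPM in control libraries (0.86 ± 0.24; edgeR adjusted p = 0.0476). Its call was lost with upper-quartile scaling, library totals alone, DESeq2 and without ALP replicate A. On the same strand 30.7% of its exon bases overlap another annotated gene, Gm49333, which held 0 counts. On the opposite strand 8.86% overlap Alg3. The methyltransferases Eef1akmt1, Eef1akmt2, Eef1akmt3 and Eef2kmt did not pass.

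Levels per length put the members in a similar order in both groups. The order depends on the deposited gene length, which for some genes exceeds the longest transcript (4334 against 1774 bases for Eif4a1). Eef1a1 led with 3128 ± 170 RPKM in ALP and 4222 ± 208 RPKM in control libraries (SD, n = 2 each), followed by Eef2 with 1077 ± 27.0 and 1552 ± 53.2 RPKM. Eif5a ranked 3 in ALP at 433 ± 30.2 RPKM and 4 in control at 279.7 ± 17.8 RPKM, where it changed places with Eef1g (327 ± 12.8 RPKM in ALP and 313 ± 0.325 RPKM in control). Eif4a1 ranked 5 in ALP at 234 ± 23.4 RPKM and 11 in control at 147 ± 3.65 RPKM. Eif4ebp1 ranked 29 in ALP at 41.7 ± 1.39 RPKM and 18 in control at 64.2 ± 2.26 RPKM. Eif4e was among the scarcer factors, at 20.8 ± 1.45 RPKM in ALP and 13.6 ± 0.471 RPKM in control, and its ALP level did not differ from that of its neighbour in the order, Eif5b (20.8 ± 1.53 RPKM), beyond the spread. Least abundant of the tested members was Eef1akmt3 in both groups, below 1 RPKM.

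Of the members, 9 were listed as TOP mRNAs from general knowledge, with earlier results of these data known. They were Eef1a1, Eef1b2, Eef1d, Eef1g, Eef2, Eif3e, Eif3f, Eif3h and Eif4b, which is not a complete list. None of these rose and 5 fell (Eif4b, Eef2, Eif3h, Eif3f and Eef1a1), where 12.1% of all tested genes fell. The median log2 fold change of the 9 was -0.39. Of the 57 other tested members 17 rose and 3 fell, with a median of 0.20, where 17.7% of all tested genes rose. ALP libraries lay below both control libraries for 7 of the 9 and above both for 2 (Eef1d and Eef1g), where 37.5% of all tested genes had ALP below and 38.2% ALP above. Pabpc1, a poly(A)-binding protein whose mRNA also carries a TOP tract but which is not a member, had 1879 and 2039.7 CPM in ALP and 1668 and 1660.4 CPM in control libraries (0.24 ± 0.10; edgeR adjusted p = 0.111). The TOP members held 1.42% and 1.33% of all counts in ALP libraries and 1.95% and 1.83% in control libraries. The list overlaps the elongation factors and the eIF3 octamer, so these descriptions are not separate.

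**Figure D4:**
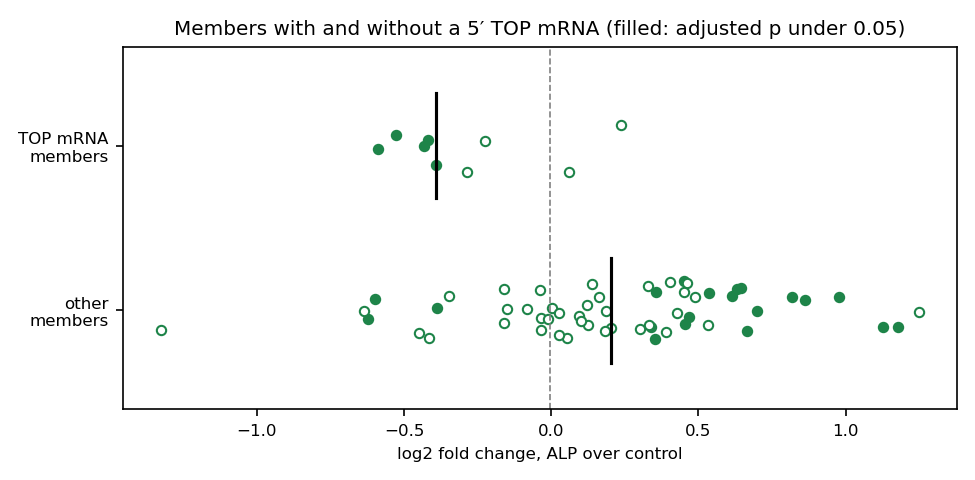
Log2 fold changes, ALP over control, are shown for the 9 TOP members and the 57 other tested members, with filled points for those past the threshold and a line at each median. The median is -0.39 for the TOP members and 0.20 for the others; the called TOP members all lie below 0.

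A promoter window of 250 bases before to 50 bases after a RefSeq start was found for 52 of the 68 members. The hexamer CACGTG, the core E-box bound by MYC and by relatives such as USF and TFE proteins, was searched in every window. It reads the same on both strands. It was present for 13 of the 52 members (25.0%), against 11.7% of the 10049 tested genes with a window and 8.09% of all genes with one. By window, it was present in 22.4% of the member windows and 7.15% of all 32851 windows. Members had 1.29 windows per gene and tested genes 1.28. Members that rose had 1.47 windows per gene, those that fell 1.33 and those that did not pass 1.2, so the openings for a match were unequal. By direction, 5 of 15 members that rose carried it (Eif4e, Eif4g1, Eif4a1, Eif5a and Eef1akmt4), 4 of 6 that fell (Eef2, Eef2k, Eif3f and Eif3k) and 4 of 30 that did not pass. These shares were not set beside those of all genes that rose or fell, and their difference was not tested. In Eif4e a further copy begins at base -228, and in Eif4g1 one begins 15 bases after the start. A match describes these letters in these windows and is not evidence of binding.

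Genes that work next to the factors gave the following counts, where 17.7% of all tested genes rose and 12.1% fell. Of 8 termination and recycling genes 3 rose and none fell, with a median of 0.34. Gspt1 (the release factor eRF3a) had 245 and 278 CPM in ALP libraries and 153 and 157 CPM in control libraries (0.75 ± 0.10; edgeR adjusted p = 0.0161). Denr (a subunit that helps recycle small ribosomal subunits) rose by 0.81 ± 0.15 and Abce1 (the ATPase that splits ribosomes) by 0.61 ± 0.11 (edgeR adjusted p = 0.019 and 0.02). Of the 10 poly(A)-binding proteins, their partners and initiation helicases, 4 rose and 2 fell, with a median of 0.24. Besides Dhx29, given below, those that rose were Larp1 (0.38), Larp4 (0.52) and Pabpc4 (0.42). Paip2b, a relative of Paip2, did not pass at -0.01. The 2 that fell were Pdcd4 and Paip2. Pdcd4, which sequesters eIF4A, had 20.5 and 6.46 CPM in ALP libraries and 67.5 and 59.3 CPM in control libraries (-2.23 ± 0.48; edgeR adjusted p = 0.0272), and Paip2, which displaces poly(A)-binding protein, changed by -0.68 ± 0.11 (edgeR adjusted p = 0.0163). The helicase Dhx29 rose by 0.48 ± 0.08 (edgeR adjusted p = 0.0184).

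Of the 9 genes for hypusine, diphthamide and selenocysteine 4 rose and none fell, with a median of 0.54. Over all tested genes 17.7% rose and 12.1% fell. Diphthamide is a modified histidine of eEF2, and its enzymes Dph5, Dph2 and Dph6 rose by 0.91 ± 0.16, 1.01 ± 0.22 and 0.59 ± 0.14, in the same libraries in which Eef2 itself fell (edgeR adjusted p = 0.0182, 0.0276 and 0.0341). The hypusine enzymes Dhps and Dohh did not pass, at 0.30 and 0.23. In the mTORC1 and MAPK arms that act on the factors none of 14 genes rose and 2 fell, around a median of -0.13, and the share that fell (14.3%) was near the 12.1% of all tested genes. Mknk2, a kinase of eIF4E, changed by -0.85 ± 0.20 and Deptor, an mTOR inhibitor, by -0.40 ± 0.11 (edgeR adjusted p = 0.0328 and 0.0423). Mtor had a log2 difference of -0.18 and Rptor of 0.29, and neither passed. The mitochondrial translation factors had no common direction, with 1 of 10 rising (Gfm1, 0.56 ± 0.09) and 1 falling (Gfm2, -0.40 ± 0.10), around a median of 0.09.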

How the data were processed

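The authors deposited 1 table with whole-number read counts per gene and library, not normalized, together with FPKM values and a comparison of their own, of which only the counts and gene lengths were used. The submitters' processing notes list HISAT2 2.0.5 and featureCounts 1.5.0-p3. They also list GRCh38, a human build, but the identifiers are mouse ones: 54409 of 54532 (99.8%) occur in GENCODE M21 (GRCm38), as do all 68 members, 65 with the same coordinates. Strandedness and the handling of multiply matching reads are not stated in the sources used here. The table's column numbers differ from those in the labels, so columns were assigned to groups only.

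The deposited counts entered edgeR 4.0.16 in R 4.3.3: filterByExpr (minimum count 10, minimum total 15), TMM scaling, and the two-sided quasi-likelihood F test on the group alone over all 14056 genes, Benjamini-Hochberg adjusted, called under 0.05. Residual degrees of freedom were 2, and the common biological coefficient of variation was 0.144. Standard errors are the log2 fold change over the square root of F. RPKM used the authors' deposited gene length and the scaled counts. Ratios and ranks between genes depend on that length, which can exceed the longest transcript. No molecular identifiers are described, so counting error is a lower bound. Alternatives were other scalings, no filter, DESeq2 1.42.0, limma-voom (limma 3.58.1) and leaving out each library.

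The members, role groups and companion lists were chosen with earlier results of these data known. Named genes are up to 4 called members per role group by smallest p, up to 3 called genes per companion list, and a list of main factors whatever their result. Eif3d and Eif3k are named outside that rule, as are the members and companions given by a log2 value without a standard error and Eif1ax, Eif2s2, Eif2s3y and Pabpc1, and these were chosen after their values were seen.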

Additional observations from a re-analysis of the deposited data

How the results depend on the processing

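No paired analysis was possible because the columns of the 2 groups share 1 replicate number, so the alternative with a replicate block was not run, nor was the one with deposited FPKM levels, since 1 measure per library, the counts, was kept. At an adjusted p under 0.01 the edgeR test called 0 genes and 0 members (6513 genes at an unadjusted p under 0.05). Leaving out 1 library, where the lone sample is assumed to vary like the other group, gave between 0 and 7308 genes and between 0 and 44 members (0 to 28 up, 0 to 16 down). Over the same fits the median log2 fold change ran from 0.13 to 0.15 for all members, 0.12 to 0.20 for initiation factors, 0.03 to 0.07 for elongation factors, -0.46 to -0.32 for TOP members, 0.18 to 0.25 for other members, 0.09 to 0.18 for eIF2, 0.0436 to 0.131 for eIF2B, 0.0603 to 0.0979 for eIF3, 0.08 to 0.13 for eIF4 and 0.25 to 0.40 for start selection. With upper-quartile scaling and library totals alone, the medians were 0.11 and 0.11 for all members, 0.0236 and 0.0253 for elongation factors, 0.17 and 0.17 for other members, 0.0450 and 0.0471 for eIF3 and 0.0705 and 0.0721 for eIF4. The eIF3 median was 0.0767 with RLE size factors and 0.0732 when libraries were scaled without ribosomal protein and translation factor genes, a setting chosen after seeing the data. No scaling moved the median of all genes by more than 0.04 (log2). The cause of these shifts was not tested. Low counts limit the precision for Eif4ebp3, with 59 counts in all, and Eef1akmt3, with 43.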
